A study of Mus musculus with 2 samples.

Results

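The genes considered here encode the subunits of the CCAAT-box factor NFY (Nfya, Nfyb and Nfyc) and the GC-box factors Sp1, Sp2, Sp3 and Sp4. They were chosen by name as the genes of these proteins, with earlier results of these data known. They make up 7 of the 21527 protein-coding genes whose promoters could be placed on the mm10 genome. Binding of CHD2 at these genes was measured by chromatin immunoprecipitation and sequencing (ChIP-seq), in which DNA bound by a protein is recovered with an antibody and sequenced. The cells were ES-E14, an embryonic stem cell line from a male embryo of mouse strain 129/Ola, and no genotype or treatment other than the antibody to CHD2 is named. The samples form 1 group with 2 biological replicates, which leaves no conditions to compare, and only peak lists were analysed. CHD2 peaks show where CHD2 was recovered from DNA and do not measure how much of these factors the cells made.

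NFY is a trimer in which NF-YB and NF-YC pair through histone folds and NF-YA joins them to contact the CCAAT box, a motif common just upstream of the start sites of housekeeping and cell cycle genes. Sp1, Sp2, Sp3 and Sp4 are zinc finger proteins named after Sp1, which binds GC boxes in promoters that often lack a TATA box. Sp1 and Sp3 are made in nearly all cells, Sp4 is best known from neurons, and Sp2 is known to occupy many promoters that also carry NFY. CHD2 is an ATP-dependent chromatin remodeller with chromodomains that is found mainly at active promoters.

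The sequences before the start sites that the results turn on are printed first, because the members differ in where their starts lie and in which motifs precede them. Each is the 250 bp before a start site listed in RefSeq, from the RefSeq promoter table on GRCm38.p6, written 5′ to 3′ on the strand of the gene. Capitals mark matches to the CCAAT box, whose other strand reads ATTGG. They also mark the GC box, searched as GGGCGG, and its other strand likewise. The outer start of Sp2 is shown as a contrast with the internal start of the same gene, and that of Sp4 as a promoter with both motifs and no peak in the optimal list.
Sp2 internal start, chr11:96977689-96977938, minus strand: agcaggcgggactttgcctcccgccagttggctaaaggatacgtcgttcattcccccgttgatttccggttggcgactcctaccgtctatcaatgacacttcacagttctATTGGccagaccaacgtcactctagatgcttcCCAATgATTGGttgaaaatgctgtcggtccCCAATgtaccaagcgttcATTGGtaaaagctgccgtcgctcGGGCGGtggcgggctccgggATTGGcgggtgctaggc
Sp2 outer start, chr11:96982960-96983209, minus strand: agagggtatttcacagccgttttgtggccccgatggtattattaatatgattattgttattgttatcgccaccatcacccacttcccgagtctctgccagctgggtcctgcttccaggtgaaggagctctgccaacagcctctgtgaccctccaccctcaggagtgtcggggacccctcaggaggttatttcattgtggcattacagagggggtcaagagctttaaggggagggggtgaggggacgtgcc
Sp1 start, chr15:102406066-102406315, plus strand: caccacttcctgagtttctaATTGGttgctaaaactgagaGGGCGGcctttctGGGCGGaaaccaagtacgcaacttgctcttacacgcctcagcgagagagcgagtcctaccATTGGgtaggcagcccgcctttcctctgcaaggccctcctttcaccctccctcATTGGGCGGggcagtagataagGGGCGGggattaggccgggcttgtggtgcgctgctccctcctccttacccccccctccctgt
Nfyc start 5838 bp inside, chr4:120825742-120825991, minus strand: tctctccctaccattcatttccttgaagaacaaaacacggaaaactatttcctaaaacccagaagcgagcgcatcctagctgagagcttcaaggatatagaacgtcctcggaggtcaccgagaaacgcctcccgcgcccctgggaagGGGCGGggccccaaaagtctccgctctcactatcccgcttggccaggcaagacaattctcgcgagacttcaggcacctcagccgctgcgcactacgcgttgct
Nfyc start 15866 bp inside, chr4:120815714-120815963, minus strand: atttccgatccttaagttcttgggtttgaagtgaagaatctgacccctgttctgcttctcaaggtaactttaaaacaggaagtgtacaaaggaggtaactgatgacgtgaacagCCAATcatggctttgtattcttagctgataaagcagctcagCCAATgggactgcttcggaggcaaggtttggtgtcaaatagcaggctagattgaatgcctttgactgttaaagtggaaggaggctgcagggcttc
Sp3 outer start, chr2:72980447-72980696, minus strand: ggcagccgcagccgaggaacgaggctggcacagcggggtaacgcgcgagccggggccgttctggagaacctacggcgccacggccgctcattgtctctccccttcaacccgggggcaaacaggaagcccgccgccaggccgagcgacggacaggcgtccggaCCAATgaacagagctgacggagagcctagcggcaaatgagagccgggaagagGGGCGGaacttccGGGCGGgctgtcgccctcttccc
Sp4 start, chr12:118301441-118301690, minus strand: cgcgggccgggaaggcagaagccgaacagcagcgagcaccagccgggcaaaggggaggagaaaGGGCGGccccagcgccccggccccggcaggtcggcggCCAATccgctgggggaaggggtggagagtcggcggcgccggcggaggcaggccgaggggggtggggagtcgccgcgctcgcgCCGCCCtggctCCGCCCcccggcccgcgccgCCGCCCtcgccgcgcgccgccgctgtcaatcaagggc

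CHD2 peaks were found at the outer 5′ end of 2 of the 7 genes, against 14.1% of all genes. Counting every listed start, a rule added after the data were seen, they were found at 4 of 7, against 15.4%, and the strongest was at Sp2. A gene with more listed starts has more places for a peak. Of the 2761 genes with 2 or more, as at Nfya, Nfyc, Sp2 and Sp3, 571 had a peak at a listed start. In the optimal list, the set of 8282 peaks derived from both replicates, the peak just upstream of an internal start of Sp2 had a signal of 392.34 and was the 13th strongest. The strongest peak had 190.44 at Sp1, 164.98 at Nfyc and 68.13 at Sp3. The median was 29.63 over the list, and 44.59 over the strongest start peak of each gene with one. Nfya, Nfyb and Sp4 had no optimal peak at a start or in the gene body. Signal is the peak caller's own value and was compared only within a list. Ranks are by signal, with 1 the strongest. Read depth is not given by the lists, so neither counting error nor a detection limit can be given, and with 2 replicates in 1 group no test was made.

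By the rule that a promoter peak has its summit within 1 kb of the outer 5′ end of the gene, 2 of the 7 genes (Sp1 and Sp3) had an optimal promoter peak. The conservative list of 7530 peaks gave the same genes, Sp1 and Sp3, against 13.6% of all genes. That rule misses start sites further inside a gene, and RefSeq lists 14 starts for the 7 genes. Counting a summit within 1 kb of the outer end or of any listed start gave 4 of 7 (Nfyc, Sp1, Sp2 and Sp3). A peak at a listed start without one at the outer end was found at 280 genes, which is 8.45% of the 3314 genes with any start peak, and Nfyc and Sp2 were among them. The outer end of Nfyc is not itself a listed start. In all, 1740 genes had listed starts but none within 1 kb of the outer end. With 7 members, counts of 2 and 4 were not tested against the shares of all genes.

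**Figure D1:**
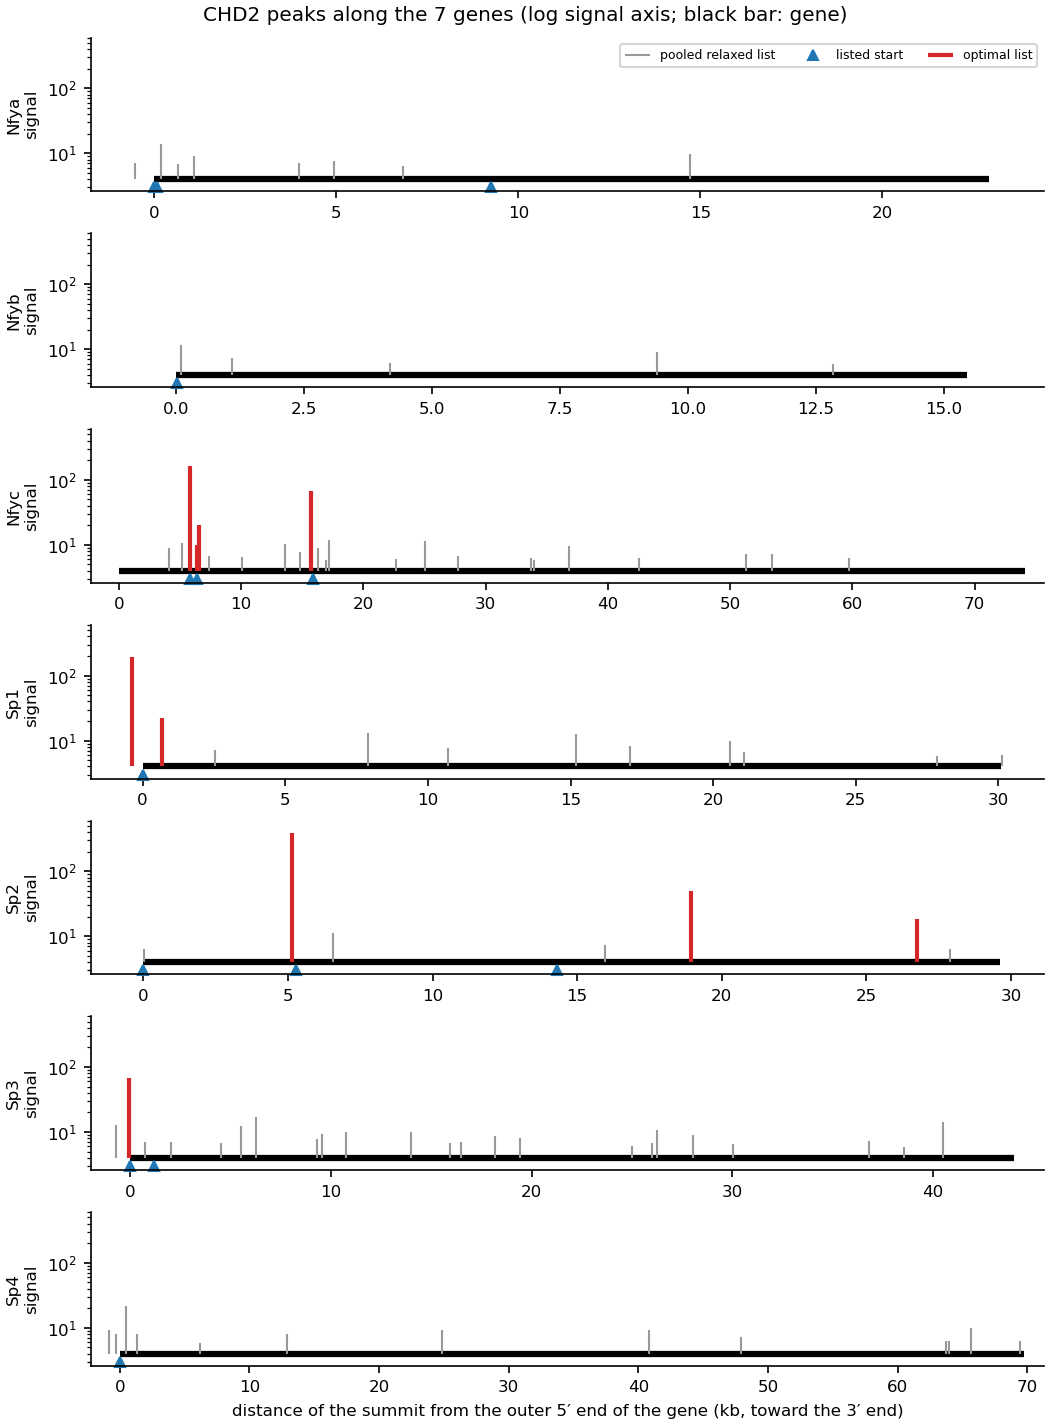
CHD2 peaks along the 7 genes, with the distance of each summit from the outer 5′ end (kb, toward the 3′ end) on the x axis and the signal on a log y axis. Red lines are optimal peaks, grey lines are peaks of the pooled relaxed list, triangles are listed starts and the black bar is the gene; the tall red lines at Sp2 (392.34) and Nfyc (164.98) stand over starts inside the gene, whereas those at Sp1 and Sp3 stand at the outer end and Nfya, Nfyb and Sp4 have grey lines only.

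Among the NFY genes, Nfyc, which encodes the histone-fold partner of NF-YB, held all the optimal peaks. Nfyc is on the minus strand of chromosome 4 (120757435 to 120831579), and its 3 listed starts lie 5838, 6370 and 15866 bp inside the outer end. The strongest peak (chr4:120825691-120825912) had an optimal signal of 164.98 and rank 376, with its summit 49 bp upstream of the first of these starts. Its signal was 89.82 in replicate 1, where it ranked 350, and 76.6 in replicate 2, where it ranked 399. The rank was thus nearly the same in both replicates. The peak at the start 15866 bp inside (chr4:120815656-120816015) had 67.04 and rank 1357, with its summit 123 bp upstream of that start. It had 39.9 (rank 1097) in replicate 1 and 28.43 (rank 1748) in replicate 2.

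The start 6370 bp inside Nfyc carried 2 weaker optimal peaks that overlap each other. They had signals of 20.12 (chr4:120824833-120825192, rank 6672) and 10.08 (chr4:120825037-120825396, rank 7885), with summits 196 bp downstream and 8 bp upstream of the start. The weaker ranked 47216 in the pooled relaxed list, behind the strongest start peaks of Nfya, Nfyb and Sp4, which are not in the optimal list. Replicate 1 had a single peak at this Nfyc start, with 13.16 at rank 5938. Replicate 2 had 2 overlapping peaks, with 11.27 at rank 8728 and 4.3 at rank 107704. All 3 listed starts of Nfyc therefore had an optimal summit within 200 bp. The same was so for 3 or more starts at 15 of the 687 genes with at least 3 listed starts (2.18%), Nfyc included. No list held a peak within 1 kb of the outer end of Nfyc.

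Nfya, which encodes the subunit that contacts the CCAAT box, had only weak relaxed peaks. The relaxed lists hold 300000 peaks each. The median signal was 7.163 in the pooled relaxed list and 29.63 in the optimal list, and the lowest was 5.737 in both. Nfya lies on the minus strand of chromosome 17 (48386885 to 48409820). In the pooled relaxed list its strongest start peak had a signal of 14.01 and rank 18072, with the summit 186 bp inside the outer end. Replicate 1 had 7.11 within 1 kb of that end (rank 32046.5, summit 495 bp inside) and replicate 2 had 13.99 (rank 5670, summit 169 bp inside), so the replicates differed widely in rank and in the place of the summit. Oard1, on the other strand, begins 137 bp from the outer end of Nfya and 323 bp from the pooled summit. The listed start 9240 bp inside Nfya had no peak within 1 kb in any mm10 list.

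Nfyb, which encodes the other histone-fold subunit, had the lowest signal of the 7 genes at its strongest start peak. It lies on the minus strand of chromosome 10 (82748700 to 82764151), within the span of Hcfc2 on the other strand. The pooled relaxed peak had 11.37 and rank 31360, with its summit 93 bp inside the outer end. Replicate 1 had 5.08 and rank 114353 with the summit 372 bp inside, and replicate 2 had 10.69 and rank 9824 with the summit 50 bp inside. The replicates thus differed in rank and in the place of the summit. The 5′ end of Hcfc2 is 65051 bp from the pooled summit.

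Among the Sp genes, Sp2 had the strongest peak of the 7 genes in every mm10 list. Sp2 lies on the minus strand of chromosome 11 (96953332 to 96982959). The peak chr11:96977648-96978094 had an optimal signal of 392.34 and rank 13. It had 195.36 (rank 28) in replicate 1 and 201.39 (rank 10) in replicate 2. Its summit lay 5128 bp inside the outer end and 143 bp upstream of the listed start at 96977688, in the stretch printed above as the internal start.

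The other starts of Sp2 were nearly without signal. At its outer end the pooled relaxed list held a peak of 6.46 at rank 202404, replicate 1 held none, and replicate 2 held 5.01 at rank 69095, 623 bp inside. The start 14294 bp inside had a peak in replicate 2 alone, with 5.75 at rank 46317.5. Farther from any start, Sp2 carried 2 more optimal peaks in the gene body. The peak chr11:96963853-96964212 had 49.63 and rank 1977, with 19.25 (rank 3123) in replicate 1 and 26.98 (rank 1867) in replicate 2. The peak chr11:96956047-96956406 had 18.28 and rank 7080, was not in the conservative list, and ranked 16830 in replicate 1 and 10984 in replicate 2. These lay 4632 and 12438 bp from the nearest start.

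Sp1, the founding member of the family, had its main peak farther upstream than most genes. Sp1 lies on the plus strand of chromosome 15 (102406316 to 102436404) and has 1 listed start, which is its outer end. The peak chr15:102405713-102406185 had 190.44 and rank 288, with 101.84 (rank 281) in replicate 1 and 88.4 (rank 306) in replicate 2. Its summit was 363 bp upstream of the start in the optimal list and in replicate 1, and 368 bp upstream in replicate 2. Over the 3314 genes with a start peak, the median summit of the strongest peak was 54.5 bp upstream, 73.5% were within 200 bp, and 7.33% were as far upstream as at Sp1 or farther. A second optimal peak (chr15:102406803-102407162) lay 667 bp inside Sp1, with 22.6 and rank 5954. It ranked 10614 in replicate 1 and 8226 in replicate 2.

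Sp3, which shares its binding motif with Sp1, had a single optimal peak at the usual place. Sp3 lies on the minus strand of chromosome 2 (72936430 to 72980446). The peak chr2:72980349-72980708 had 68.13 and rank 1333, with its summit 83 bp upstream of the outer start. It had 29.87 (rank 1596) in replicate 1 and 37.5 (rank 1229) in replicate 2. The second listed start of Sp3, 1165 bp inside, had no optimal peak and 7.12 (rank 154000) in the pooled relaxed list. Sp3os, a long non-coding RNA gene, overlaps the 5′ end of Sp3, and the summit upstream of Sp3 lies within Sp3os.

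Sp4 was the nearest to the optimal list of the 3 genes outside it. Sp4 lies on the minus strand of chromosome 12 (118231686 to 118301440), and its pooled relaxed peak (chr12:118300804-118301163) had 21.77 and rank 7244, with the summit 456 bp inside the start. In replicate 1 the start peak had 7.67 and rank 24183, and in replicate 2 it had 12.42 and rank 7151. Of the optimal peaks, 2099 (25.3%) had a lower signal than this peak. Of the 7247 pooled peaks at least as strong, 1028 (14.2%) overlapped no optimal peak, so Sp4 was not alone in this. How far the lower rank in replicate 1 decided it was not tested.

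**Figure D2:**
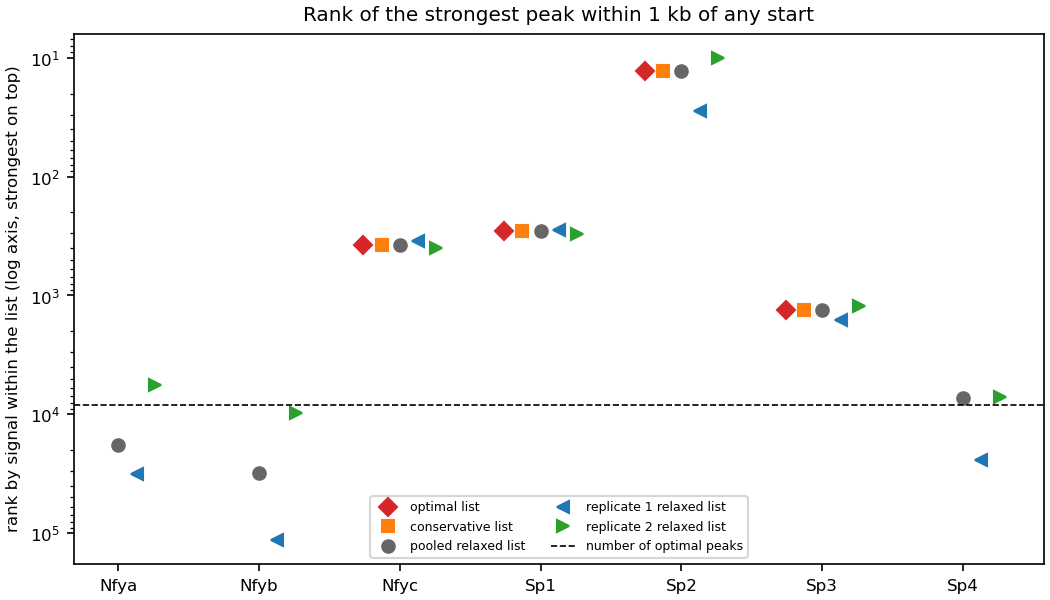
Rank by signal (log axis, strongest on top) of the strongest peak within 1 kb of any start of each gene in 5 mm10 lists; the dashed line is at 8282, the number of optimal peaks. Sp2, Sp1, Nfyc and Sp3 lie above the dashed line in every list, whereas Nfya, Nfyb and Sp4 have no marker in the optimal and conservative lists and rank better in replicate 2 than in replicate 1.

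The order of the strongest start peaks in the pooled relaxed list was Sp2, Sp1, Nfyc, Sp3, Sp4, Nfya, Nfyb. Replicate 1 gave the same order, and replicate 2 differed only in that Nfya (rank 5670) stood before Sp4 (rank 7151). Sp1 and Nfyc were neighbours in every list, and their replicate ranks (281 and 306 at Sp1, 350 and 399 at Nfyc) did not overlap, although 2 replicates give little hold on that gap. Nfya, Nfyb and Sp4 all ranked better in replicate 2 than in replicate 1. In the 8282 strongest peaks of each replicate, the outer-end rule called 2 members in replicate 1, against 14.5% of all genes, and 4 in replicate 2 (Nfya and Sp4 beside Sp1 and Sp3), against 14.2%. With any listed start the counts were 4 against 15.9% in replicate 1 and 6 against 15.5% in replicate 2, where Nfyb alone was missing.

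In the full relaxed lists a start peak is common. The pooled relaxed list had a summit within 1 kb of the outer end at 6 of 7 members, all except Nfyc, against 57.7% of all genes. Replicate 1 had 5 of 7 against 50.4%, and replicate 2 had 6 of 7 against 59.6%. With any listed start the pooled count was 7 of 7 against 61.4%.

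The 4 genes with an optimal start peak were placed among all 3314 genes with such a peak by their strongest signal. Sp2 was the 13th (0.3923%), Sp1 stood at place 303 (9.143%), Nfyc at 386 (11.65%) and Sp3 at 1118 (33.74%). The median of these 4 was 177.7, against 44.59 over all 3314 genes. The genes nearest to each in rank over the optimal, pooled and both replicate lists, by the sum of the 4 absolute log2 rank differences, were Psmb2 (0.643) and Eif5 (1.375) for Sp2. They were Naa25 (0.1293) and Ube2c (0.1966) for Sp1, Slc12a2 (0.06829) and Anp32e (0.1297) for Nfyc, and Sap30l (0.05483) and Fam167b (0.07983) for Sp3. Psmb2, a proteasome subunit gene, had 391.56 at rank 14, next to the 392.34 of Sp2.

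**Figure D3:**
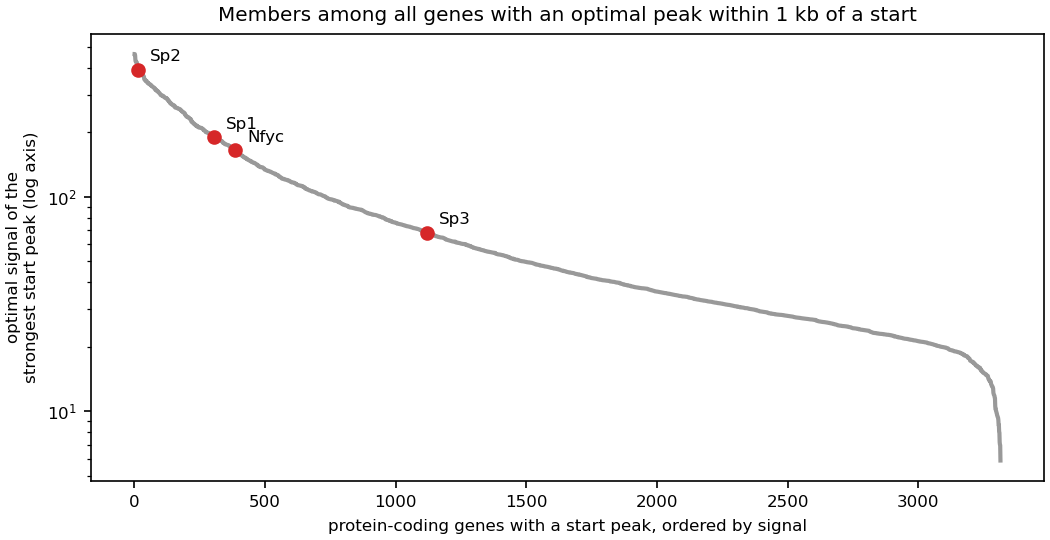
Signal of the strongest optimal start peak (log axis) of each of the 3314 protein-coding genes with such a peak, in order of signal. The points mark Sp2 at place 13, Sp1 at 303, Nfyc at 386 and Sp3 at 1118, all above the median of 44.59.

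Gene-body summits, more than 1 kb inside the outer end, were found in the optimal list at 2 of 7 members (Nfyc and Sp2), against 9.11% of all genes and 9.76% of the 8116 genes within the members' range of length (15452 to 74145 bp). Of the 10 optimal peaks at the 7 genes, 3 were promoter peaks and 7 were gene-body peaks by the outer-end rule, but 8 lay within 1 kb and 6 within 200 bp of some start. The conservative list held 9 of the 10. Counting promoter and body together, Nfyc had 4 optimal peaks, of which 2 overlap each other. A count of 4 was reached by 0.316% of all genes. These shares are over genes of any length, and Nfyc is the longest member. No share within the members' range of length was computed for them. Sp2 had 3, a count reached by 1.13%, and Sp1 had 2, reached by 4.8%. In the pooled relaxed list the gene bodies held between 1.434 peaks per 10 kb (Sp4) and 4.544 (Sp3), with 3.102 at Nfyc, 2.659 at Sp1, 2.589 at Nfyb, 2.18 at Nfya and 2.025 at Sp2. The members' median was 2.589, and genes in the same length range had a median of 1.474 with quartiles of 0.8161 and 2.253.

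The motif of NFY preceded some of these starts many times over. The internal start of Sp2, where the strongest peak lay, had 6 CCAAT matches in the 250 bp before it, at 140, 108, 102, 78, 60 and 17 bp upstream, and 1 GC box at 37 bp upstream. The first match begins 3 bp from the summit. Of all 21262 listed starts of protein-coding genes, 14 (0.0658%) had 6 or more CCAAT matches, and 10 of these were among the 2199 starts with an optimal summit within 200 bp. The outer start of Sp2 and the start 14294 bp inside had neither motif.

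Sp1 had 3 CCAAT matches and 4 GC boxes before its start, of which the CCAAT match at 84 bp and the GC box at 81 bp upstream overlap. Its summit, 363 bp upstream, lies outside the 250 bp window, and the peak covers 120 bp of it. At Nfyc the start of the strongest peak had no CCAAT match and 1 GC box, 103 bp upstream. The start 15866 bp inside had 2 CCAAT matches, at 136 and 95 bp upstream on each side of the summit, and no GC box. The start 6370 bp inside, with the weak peaks, had 4 CCAAT matches and no GC box. Sp3 had 1 CCAAT match, 5 bp from the summit, and 2 GC boxes before its outer start, and 5 GC boxes with no CCAAT match before the second start.

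Matches also preceded the starts without an optimal peak. Sp4 had 1 CCAAT match and 4 GC boxes, Nfyb had 3 GC boxes, and the 3 starts of Nfya had 1 GC box, 1 GC box and 1 CCAAT match. The windows of the first and second Nfya starts overlap, and their GC box is the same stretch of sequence. In all, 7 of the 14 starts of the 7 genes had a CCAAT match and 9 had a GC box.

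Among all listed starts 35.4% had a CCAAT match, 42.6% a GC box and 14.7% both. Among those with an optimal summit within 200 bp the shares were 61.5%, 58.2% and 36.6%, and among the 18085 without a summit within 1 kb they were 32.1%, 39.6% and 11.5%. Starts with a peak also had a higher median GC content, 59.2% against 54.4%, and how much of the GC box share goes with GC content was not tested. Starts with 4 or more CCAAT matches, as at Sp2 and the Nfyc start 6370 bp inside, were 1.02% of all and 7.28% of those with a peak. The GC box showed no such rise with more matches. Starts with 4 or more, as at Sp1 and Sp4, were 5.59% of all and 4.55% of those with a peak. Starts with 5 or more, as at the second start of Sp3, were 2.68% and 1.86%. The starts of Sp1 and Sp4 and the second start of Sp3 had no optimal summit within 200 bp, as that of Sp1 lay farther upstream. None of them is therefore counted among those with a peak. A match describes these letters and is not evidence of binding by NFY or an Sp protein.

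**Figure D4:**
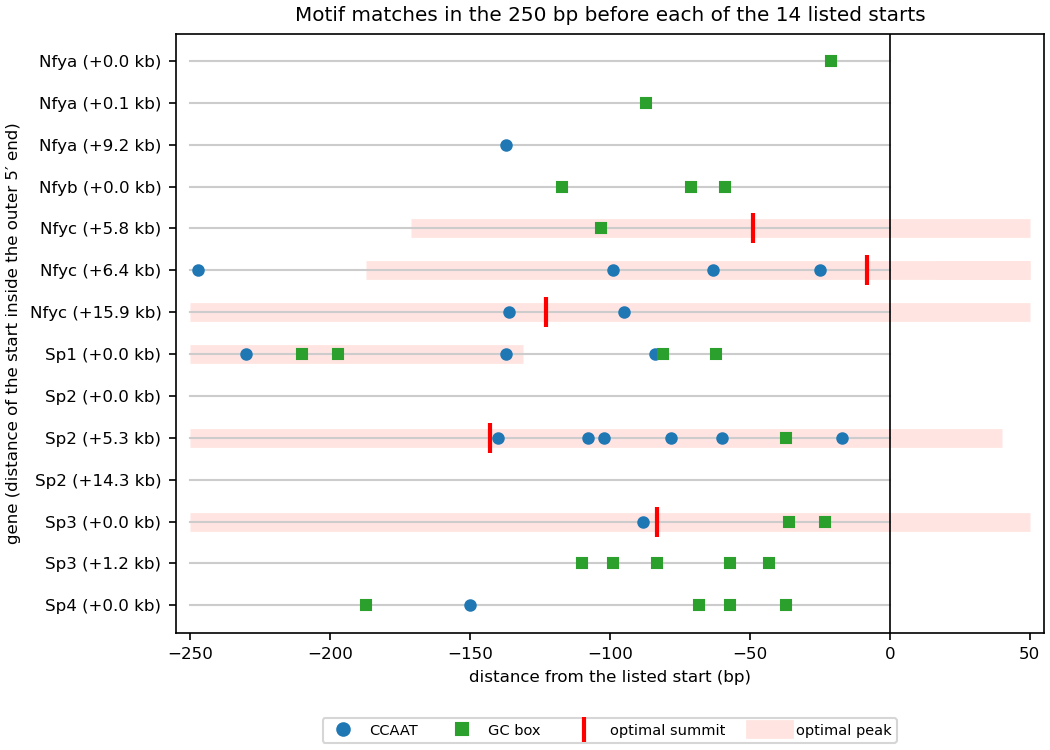
Positions of CCAAT matches (circles) and GC boxes (squares) in the 250 bp before each of the 14 listed starts, with the distance from the start in bp on the x axis and the place of the start inside the gene in the row names. Pink bands are optimal peaks and red bars their summits; the row of the Sp2 start with the strongest peak holds 6 circles, and the other rows of Sp2 hold neither motif nor peak.

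Other genes of the same families and functions were compared by the same rule. Of 22 further Sp and KLF genes, which encode zinc finger factors related to Sp1, 7 (31.8%) had an optimal promoter peak, against 14.1% of all genes, and all 7 were KLF genes. The strongest were Klf10 (75.0), Klf5 (67.28), Klf6 (37.57) and Klf11 (30.86). None of them reached Sp1, but Klf10 stood above Sp3 (68.13) and Klf5 just below it. Klf11 ranked 201411 in replicate 1 and 3379 in replicate 2. Of 32 other factors that act near promoters, 9 (28.1%) had a peak at the outer end and 12 (37.5%) at any listed start. The shares of all genes were 14.1% and 15.4%. Thap11 had 174.79, Zfp143 158.03, Yy1 87.28 and Gabpb2 84.35. Rfx1 (240.11) and Rfx5 (113.11), named after their values were seen, had theirs only at a listed start, as Nfyc and Sp2 did. Of 7 genes for histone-fold relatives of NF-YB and NF-YC, 1 had a peak, the DNA polymerase epsilon subunit gene Pole3 (82.95). Of 8 marker genes of embryonic stem cells 2 had an optimal promoter peak, Sox2 and Tdgf1, and of 6 fibroblast markers none had one, against 14.1% of all genes. Any listed start added Pou5f1 (19.05), which gave 3 of 8 against 15.4%, and no fibroblast marker. The lists were set with earlier results of these data known. For that reason, and with so few genes, these counts were not tested against the shares of all genes.

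A separate list of 4613 peaks on the older build mm9, also made from both replicates, was read with mm9 gene models. Sp3 alone had a peak at the outer end, against 9.94% of 22367 genes, and Nfyc, Sp2 and Sp3 had one at a transcript start, against 10.6%. Sp2 had 2 mm9 peaks, both in introns by the mm9 models. The stronger had a signal of 809.87 and rank 27 in that list, 115 bp upstream of the nearest transcript start, and the other had 59.73 and rank 1902, 4632 bp from the nearest start. The Nfyc peaks had 298.96 (rank 242) and 93.7 (rank 1117). They lay in introns, with summits 65 and 124 bp upstream of the nearest transcript start. The Sp3 peak had 79.84 (rank 1342), 76 bp upstream of the gene.

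Sp1 was the member whose mm9 result went against its mm10 result. Its nearest mm9 summit was 74421 bp away, although its optimal mm10 peak ranked 288. Of the 267 genes, matched between builds by symbol, whose mm10 start peak ranked at least that high, 240 (89.9%) had an mm9 start peak and 27, Sp1 among them, did not.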

How the data were processed

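CHD2 ChIP-seq peak lists of 2 biological replicates (1 group) were analysed. Per the files' descriptions, the authors derived the deposited optimal and conservative lists by the irreproducible discovery rate procedure from the relaxed lists of each replicate and of the pooled replicates. The deposited signal of each peak is the peak caller's own, with no stated normalization, and the summit offset is in bp from the peak start. The names of the caller, its filters and the aligner were not given in the sources used here, and the control was not analysed here, so how either shifts a signal or list length is unknown. Relaxed lists end at 300000 peaks, and rank depends on that list.

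Gene ends came from RefSeq GRCm38.p6, with strand from its promoter table (17491 genes) or GENCODE M1 by symbol (4036), together 98.3% of 21896 protein-coding genes. All 7 members were matched. Motifs were exact on either strand. Peaks were joined to replicate peaks by an overlap of at least 1 bp. Scripts used Python 3.11.15, pandas 2.3.3, numpy 2.4.6 and matplotlib 3.10.9, and were tested on simulated data. The members and lists were chosen with earlier results of these data known, and no p-value was computed. Named genes were the 7 members, the 2 genes nearest in rank to each with a promoter peak, overlapping or nearest genes, and up to 4 genes per other list with the highest signal. The rule with any listed start was chosen after seeing the data. Alternatives were other windows (500 bp and 2.5 kb), lists and replicates.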

Additional observations from a re-analysis of the deposited data

How the results depend on the processing

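The count of members with a promoter peak, 2 in the optimal list, stayed at 2 with windows of 500 bp and 2.5 kb, with any base of the peak in the window, in the conservative list and among the optimal peaks at or above the median signal. Leaving out each replicate in turn gave 2 to 4, and the 4 came from replicate 2 alone, which added Nfya and Sp4. Counting any listed start, chosen after seeing the data, gave 4, also with a 500 bp window, among those stronger peaks and in the conservative list, and 4 to 6 when each replicate was left out. It gave 3 with a 200 bp window, where Sp1 was missing. The mm9 list gave 1 at the outer end (Sp3) and 3 at any transcript start. The cause of these changes was not tested, beyond the added starts themselves. The rank of Sp2 went from 13 to 28 without replicate 2. The share of all genes (9.94% to 16.2%), the other factor genes (12 to 21, 17 in the optimal list) and the members with a gene-body peak (2, or 3 with the promoter window included) stayed within 1.5 times their optimal-list values. No paired analysis was possible because there is 1 group. Read depth is unknown, so weak and absent peaks at Nfya, Nfyb and Sp4 cannot be told apart from limited depth.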
